A study of Mus musculus with 21 samples.

Results

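The genes described here were 10 markers of granule cells, the principal neurons of the dentate gyrus: Prox1, Glis3, Dsp, C1ql2, Stxbp6, Calb1, Trpc6, Lct, Tdo2 and Il16. They were chosen by name from the 55487 genes of the deposited counts. Values of the library of animal 54971, such as the near absence of Dsp, were already known then. The levels of all 10 genes in that library are thus a description with no test. All 10 had counts in every library, and all 10 passed the filter on low counts. Granule cells receive the cortical input to the hippocampus and send it on through mossy fibres, their axons, to the hilus and to CA3. Neurons are still born in the adult mouse dentate gyrus, and Prox1 keeps their progeny in the granule cell fate. In whole hippocampus these genes are read out from granule cells mixed with pyramidal neurons of CA1 to CA3, interneurons and glia.

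Poly(A) RNA was sequenced from the hippocampus of male wild type C57BL/6 mice at 10 weeks of age. Mice were reared under maternal separation (MS, 9 libraries) or under standard rearing (SR, 12 libraries). MS pups were taken from the dam as a nest for 4 h per day from postnatal day 10 to 17, and most of the nesting material was removed from MS home cages, whereas SR mice were not separated. Whole nests were assigned to a condition and litter mates were later housed in groups of 3. The labels name no nest, but the 21 animal numbers form 7 runs of 3 consecutive numbers, called sets A to C (MS) and D to G (SR) here, and mice are named by set and order. If mice of a set shared a nest they are not independent, and p-values over mice then measure only the spread between these animals.

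Library totals ran from 17276810 to 30449055 counts. The library with the highest total, that of animal 54971 (MS mouse A2), stood apart and was left out of the comparisons between groups unless all 21 libraries are named, which left 8 MS and 12 SR mice. Although labelled hippocampus, A2 held 10.7 counts scaled to a common library size (CPM) of the CA1 pyramidal gene Fibcd1, where the other 20 mice held 60.7 to 194 CPM. All 9 markers of striatal spiny neurons were above all 20 other mice in A2, with a summed level of 2559 CPM against 177 to 920 CPM. All 6 markers of CA3 and 5 of 6 of CA1 lay below the other 20 mice. Over all 18146 genes tested, 16.5% lay below and 17.7% above those mice in A2. Fibcd1 was the lowest of the CA1 markers, at 6.75% of the median of the other mice. The other CA1 markers were at 17.6% (Spink8) to 93.4% (Mpped1) of it, with Wfs1 at 63.6%.

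Of the 10 genes, Dsp, C1ql2 and Lct lost the largest share of their level in A2 and also varied widely among the other mice, so the bases before their starts are shown. Dsp lies on chromosome 13 (38151294 to 38198577, plus strand), and C1ql2 and Lct lie on chromosome 1 (120340582 to 120343174, plus strand, and 128284756 to 128328318, minus strand), in GRCm38 with GENCODE gene models. The windows are the 250 bases before the RefSeq start (GRCm38.p6) on the gene's strand, which for these 3 genes is also the GENCODE start: chr13:38151044-38151293 for Dsp, chr1:120340332-120340581 for C1ql2 and chr1:128328319-128328568 for Lct. Capitals mark CANNTG, the E-box motif that bHLH factors such as Neurod1 bind and which reads the same on both strands.
Dsp: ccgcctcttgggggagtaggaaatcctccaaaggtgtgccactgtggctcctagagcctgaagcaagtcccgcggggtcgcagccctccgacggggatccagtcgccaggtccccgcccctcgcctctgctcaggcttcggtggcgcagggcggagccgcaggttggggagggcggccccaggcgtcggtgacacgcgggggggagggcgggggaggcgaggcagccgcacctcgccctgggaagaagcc
C1ql2: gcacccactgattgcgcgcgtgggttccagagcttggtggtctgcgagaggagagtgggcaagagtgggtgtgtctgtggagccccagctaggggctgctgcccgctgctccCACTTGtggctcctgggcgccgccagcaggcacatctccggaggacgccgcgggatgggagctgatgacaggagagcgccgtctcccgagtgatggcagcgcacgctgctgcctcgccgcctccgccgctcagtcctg
Lct: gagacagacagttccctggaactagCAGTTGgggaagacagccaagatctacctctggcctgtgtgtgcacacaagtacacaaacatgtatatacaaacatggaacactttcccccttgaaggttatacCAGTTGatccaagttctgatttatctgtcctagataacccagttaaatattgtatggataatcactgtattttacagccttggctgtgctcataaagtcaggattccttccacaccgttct
The Dsp window held no CANNTG, the C1ql2 window held 1 and the Lct window held 2. Dsp and C1ql2 had windows rich in G and C (72.4% and 68.8%), and Lct had 42.8%. Over the 12 RefSeq start windows that matched 9 of the 10 genes, 8 (66.7%) held the motif, against 66.2% of 32841 mouse windows of the same length. Calb1 matched none.

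Per exon length, C1ql2 was the highest of the 10 genes and Tdo2 the lowest. Levels between genes are given as CPM per kilobase of exon (FPKM), as medians over the 20 mice. C1ql2 had 35.4 FPKM, followed by Calb1 with 18.8 and Stxbp6 with 17.1, whose ranges over mice overlapped (13.2 to 23.0 and 12.6 to 22.4 FPKM). Prox1 followed with 13.5 FPKM (8.42 to 18.6), Lct with 8.86 and Dsp with 7.98. Trpc6 and Il16 both had 4.27 FPKM, Glis3 had 2.10 and Tdo2 had 1.401. Ranges of neighbours in this order overlapped in each case, with C1ql2 (19.0 to 52.2 FPKM) and Calb1 included.

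The levels of all 10 genes differed between mice by more than counting error, and Calb1 and Stxbp6 varied least. The coefficient of variation (SD as a share of the mean) over the 12 SR mice was 30.7% for Tdo2, 29.5% for Dsp, 28.4% for Lct and 25.1% for C1ql2, and 12.4% for Stxbp6 and 10.7% for Calb1. Counting error alone would give 8.82% for Tdo2, the gene with the fewest counts, and 1.95% to 4.81% for the others. Over the 20 mice, genes with at least 10 CPM had a median coefficient of variation of 8.15%, below that of each of the 10 markers (11.2% for Calb1 to 32.2% for Tdo2).

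Prox1, the homeobox factor of granule cell identity, had 70.6 CPM at the lowest, 113 at the median and 156 at the highest of the 20 mice. Glis3, a zinc finger transcription factor, had 11.1, 18.5 and 24.99 CPM in the same order. Prox1 was lowest in MS mouse A1 and Glis3 in SR mouse E2, so each condition held a mouse at the bottom of the range.

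Dsp encodes desmoplakin, which ties intermediate filaments to cell junctions, and had 53.7 CPM at the lowest, 77.1 at the median and 139 at the highest. C1ql2, a secreted C1q-like protein of mossy fibre synapses, had 38.0, 70.9 and 104 CPM. Stxbp6, a protein that binds SNARE proteins of vesicle fusion, had 66.8, 90.7 and 118 CPM. SR mouse F3 was the highest of the 20 mice for these 3 genes, and E2 was the lowest for Dsp and C1ql2.

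Calb1, the calcium buffer calbindin, which CA1 and many cortical and striatal neurons also make, had 64.1 CPM at the lowest, 91.3 at the median and 111 at the highest. Trpc6, a calcium-permeable cation channel, had 14.5, 21.6 and 30.01 CPM. Both were lowest in E2 and highest in MS mouse C2.

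Lct, the enzyme lactase, had 34.3 CPM at the lowest, 56.7 at the median and 90.0 at the highest. Tdo2, an enzyme that opens the ring of tryptophan, had 2.40, 5.44 and 9.23 CPM, from 57 to 200 counts per library. Il16, a cytokine precursor with PDZ domains, had 16.6, 33.6 and 42.5 CPM. All 3 were highest in F3, and the lowest mouse was A1 for Lct and E2 for the other two.

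**Figure D1:**
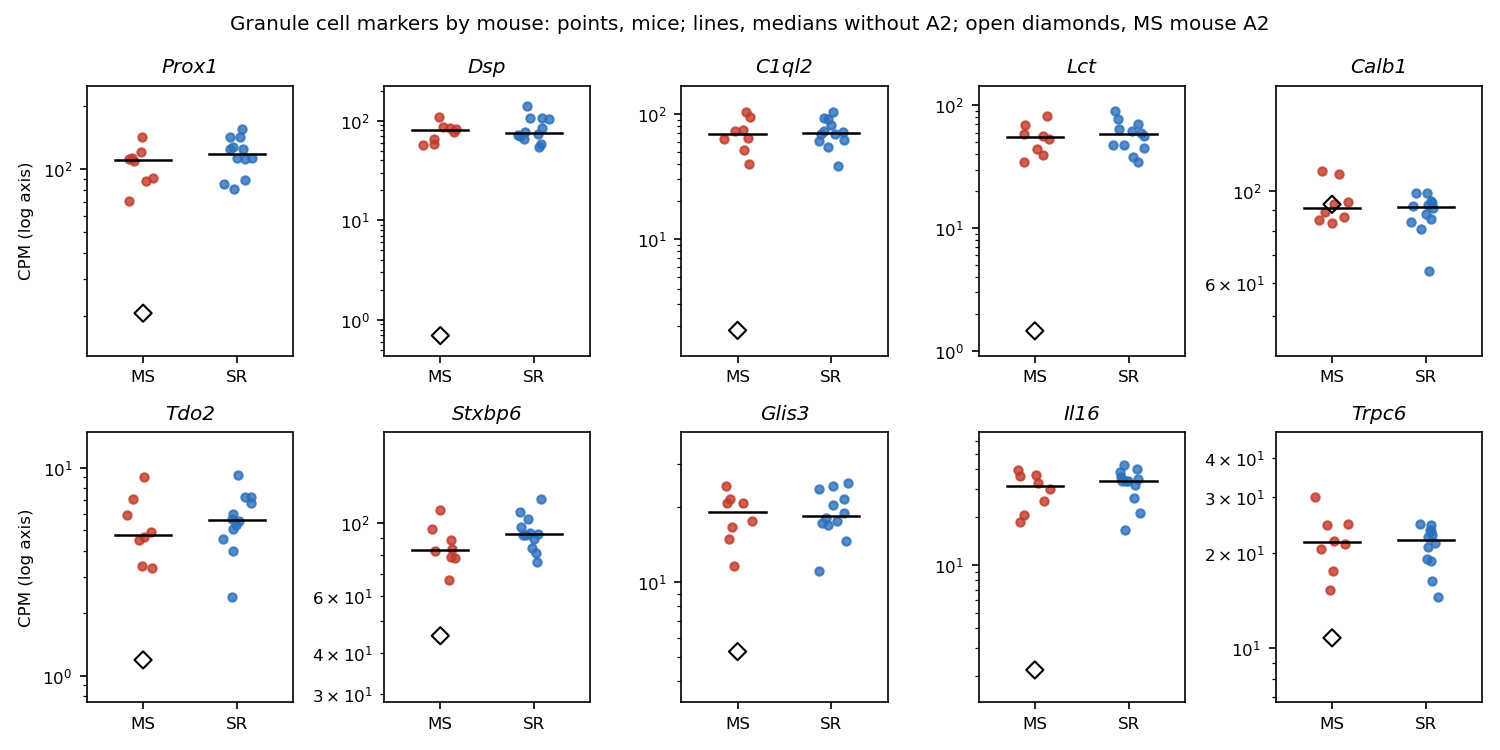
CPM of each gene (vertical log axis, its own scale per panel) in MS and SR mice, with points for mice, lines for medians without A2, and open diamonds for MS mouse A2. MS and SR points overlap in every panel, and the diamond lies below all other points in each panel but that of Calb1, where it stands at 92.7 CPM.

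The same mice were low or high for nearly all of the genes. With each gene's log2 CPM centred on its mean over the 20 mice and averaged over the 10 genes, E2 was lowest at -0.65, followed by A1 at -0.52, B1 at -0.38 and D2 at -0.33. F3 was highest at 0.48, followed by C2 at 0.42 and G1 at 0.37. E2 was the lowest mouse for 7 of the 10 genes and among the lowest 3 for all 10. F3 was the highest for 7, and C2 was among the highest 3 for 9. Fewer granule cells in the dissected tissue and less of these RNAs per cell cannot be told apart in bulk samples.

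The mice with the highest sums of striatal and neocortex markers were among those with low levels of the 10 genes. The summed level of the 9 striatal markers was 604 CPM in E2 and 920 CPM in B1, and 177 to 272 CPM in the other 18 mice. Among these 18, D2, low for the 10 genes, and F3, the highest, both had 193 CPM. The 6 neocortex layer markers summed to 290 CPM in A1, 272 in E2, 222 in D2 and 214 in E1, and the lowest sum, 115 CPM, was in F3. Cux2 and Lamp5 gave 121 and 92.3 CPM of the sum in A1. Rorb and Cux2 were highest in A1, Rspo1 and Lamp5 in E2, Fezf2 in D1 and Scnn1a in B1. Their part in the range of the granule cell markers was not tested.

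**Figure D2:**
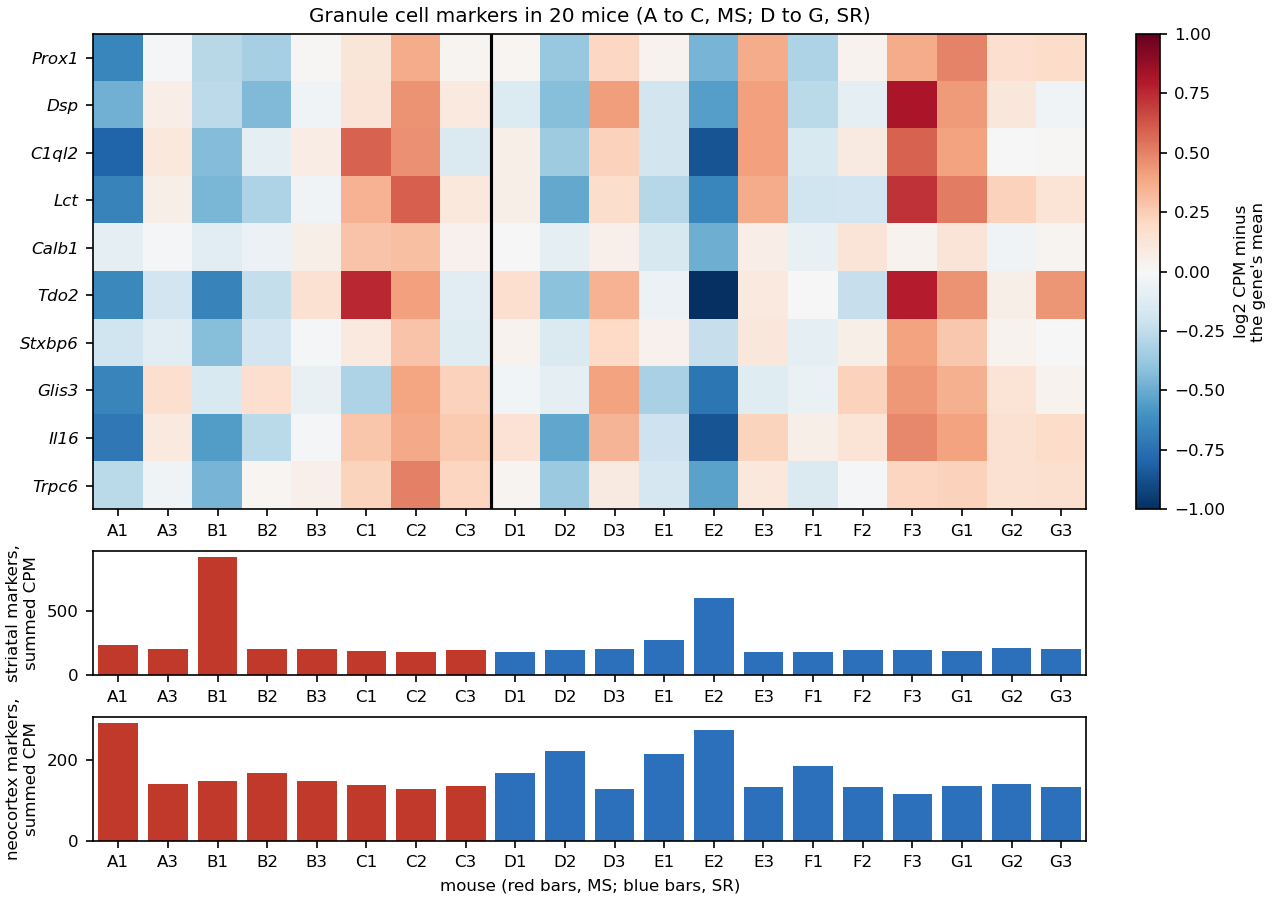
Upper panel, log2 CPM of each gene minus its mean over the 20 mice (colour, red above and blue below the mean) by mouse, and lower panels, the summed CPM of 9 striatal and 6 neocortex markers in the same mice. A1, B1, D2 and E2 are blue in all 10 rows, F3, G1, C2 and D3 in none, and the tallest bars stand at B1 and E2 (striatal) and at A1 and E2 (neocortex).

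Over the 20 mice every pair of the 10 genes correlated. Of 45 pairs on the log2 CPM scale, Pearson's r ran from 0.59 for Stxbp6 and Glis3 to 0.94 for Dsp and Lct, with a median of 0.83, and Spearman's rho had a median of 0.84. For all 45 pairs both measures had an adjusted p below 0.05 in a permutation test (two-sided, 100000 permutations, largest adjusted p of r 0.00653 and smallest p that permutations can give 1e-05). Points share their libraries and the scaling of CPM, and a pair of one of these genes with any other gene tested had a median r of 0.0077 and a range from the 5th to the 95th percentile of -0.63 to 0.67.

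Without the 2 mice farthest from the median of the first gene of a pair, the median r was 0.78 and the lowest was 0.28, for Calb1 and Glis3. Of the 45 pairs, 4 fell under 0.5 then, all with Glis3 (Calb1, Tdo2, C1ql2 and Prox1), each without E2 and a second mouse. Glis3 had the lowest median r with the other 9 genes, 0.69, followed by Calb1 with 0.73, and Lct had the highest, 0.89. The median r was 0.87 within SR mice and 0.84 within MS mice. It was 0.83 within the 14 mice with animal numbers below 56000, while the 6 mice above it, sets C and G, held only 3 mice per condition.

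Markers of other regions were set against the 10 genes in 70 relations, a family of 7 marker genes chosen from the lists. Cux2, a gene of upper cortical layers, had a negative r with all 10 (median -0.80, -0.85 to -0.65, median rho -0.82), and all 10 had an adjusted p below 0.05 in the same permutation test. Without A1 and E2, the mice farthest from the median of Cux2, the median r was -0.74. It was -0.85 within SR mice and -0.81 within MS mice. The CA1 gene Fibcd1 and the CA3 gene Bok had a positive r with the granule cell genes (median r 0.77 and 0.72, median rho 0.72 and 0.75, adjusted p of r below 0.05 for 10 and 9 of 10). For Fibcd1 the median r was 0.64 without E2 and A1, and for Bok it was 0.77 without C1 and E1. Lamp5 had a median r of -0.64 (9 of 10 with an adjusted p of r below 0.05), which was -0.41 without E2 and A1. Its median rho was -0.50. The adjusted permutation p of rho was above 0.05 for C1ql2 (0.051), Trpc6 (0.087), Stxbp6 (0.178) and Tdo2 (0.190). The median r within MS and within SR mice was 0.81 and 0.82 for Fibcd1, 0.73 and 0.80 for Bok, and -0.52 and -0.80 for Lamp5. The choroid plexus gene Ttr and the myelin gene Mbp had a median r of -0.18 and -0.17 and an adjusted p below 0.05 with none of the 10. For Ttr the median r was -0.71 within MS mice and 0.09 within SR mice, a difference that was not tested, and -0.33 without E1 and F1. For Mbp it was -0.22 within MS and -0.15 within SR mice.

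**Figure D3:**
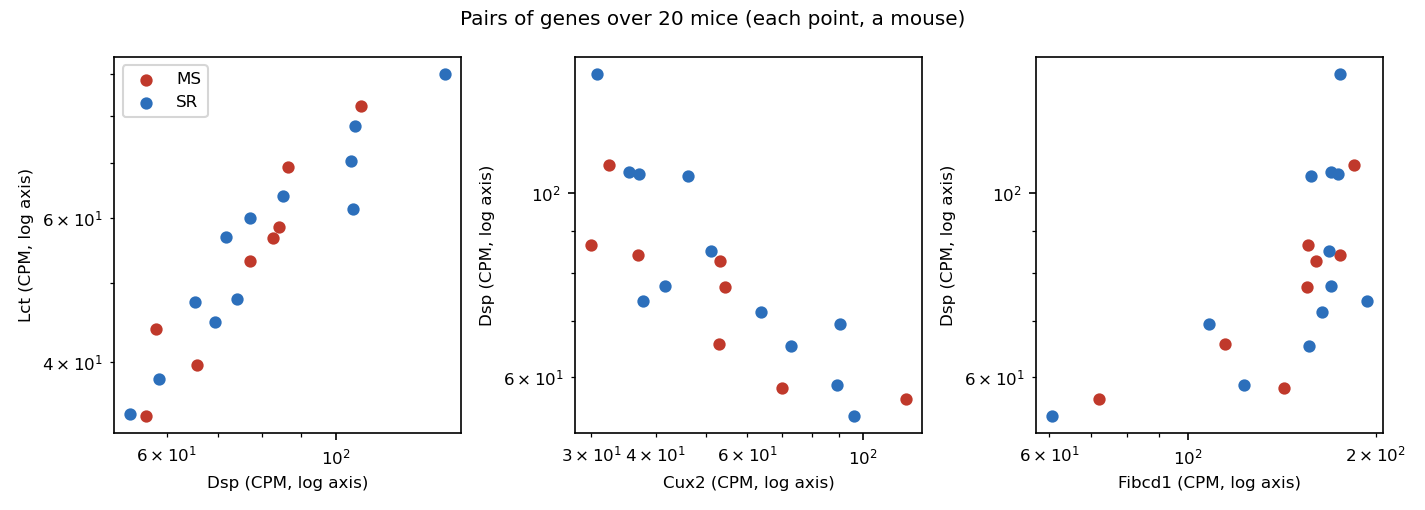
CPM of pairs of genes over the 20 mice without A2 (log axes, red for MS and blue for SR): Lct against Dsp, Dsp against the cortical gene Cux2, and Dsp against the CA1 gene Fibcd1. Lct rises with Dsp along a narrow band (r = 0.94), and Dsp is lower in the mice with more Cux2 and in those with the least Fibcd1.

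Scn3b, Orai2, Kctd4 and Map2k1 were the other genes most like the group. Their log2 CPM had a Pearson r of 0.98, 0.97, 0.97 and 0.97, in that order, with the mean standardised level of the 10 genes over the 20 mice, which is given as a description. Scn3b encodes a sodium channel beta subunit, Orai2 a pore protein of store-operated calcium entry and Map2k1 the kinase MEK1. Scn3b had 163 to 324 CPM in the 20 mice and 101.6 CPM in A2.

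In A2, 9 of the 10 genes were below the lowest of the other 20 mice, and Calb1 was not. Of all 18146 genes tested, 16.5% were below the other 20 mice in A2 and 17.7% were above them, so a place outside the range of the other mice was common in this library. In A2, 7 of the 10 were below 0.5 of the lowest of the other mice, as were 1.23% of all genes tested. The median over the 10 genes of the log2 ratio of A2 to the median of the other mice was -2.32, against 0.02 over all genes tested.

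Dsp had 21 counts in A2, or 0.696 CPM (95% Poisson interval 0.431 to 1.06, counting error only), and the median of the other 20 mice was 111 times as high. Lct had 44 counts, or 1.46 CPM (1.06 to 1.96), and C1ql2 had 56 counts, or 1.86 CPM (1.402 to 2.41). Their medians in the other mice were 38.9 and 38.2 times as high. The 10317 genes with a median of at least 10 CPM were ordered by the ratio of A2 to the lowest of the other mice. Dsp ranked 1, Lct 3, C1ql2 4, Il16 8, Prox1 26, Glis3 73, Stxbp6 214, Trpc6 319 and Calb1 8424. Tdo2, with a median under 10 CPM, was not ranked.

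Il16 had 2.19 CPM in A2, which the median of the other mice exceeded 15.3 times. Prox1 kept 620 counts, or 20.6 CPM, with a median elsewhere 5.50 times as high. Tdo2 had 1.19 CPM in A2 (4.56 times) and Glis3 had 5.27 CPM (3.52 times). Stxbp6 and Trpc6 were nearer to the other mice, with 45.2 and 10.8 CPM in A2 against lowest values of 66.8 and 14.5 CPM elsewhere, and a median 2.01 times as high for both. Calb1 had 2795 counts, or 92.7 CPM, with 8 of the 20 mice above it. The 10 genes thus spanned from 0.90% (Dsp) to 101.5% (Calb1) of the median of the other mice.

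Of 14 further granule cell genes, 11 were below all 20 other mice in A2 and 1, Pdyn, was above them. Neurod1, the bHLH factor of granule cell differentiation, had 5.602 CPM in A2, where the lowest of the others was 17.4 CPM. Synpr, a synaptic vesicle protein of mossy fibres, had 63.0 CPM against 64.5 CPM at the lowest elsewhere. Pdyn, the prodynorphin gene, which striatal neurons also express, had 40.8 CPM against 10.1 to 22.3 CPM. The median log2 ratio of A2 to the other mice was -0.72 over these 14 genes. It was -1.46 over the 6 CA3 markers, where Iyd had 1 count, -0.57 over the 6 CA1 markers, 4.50 over the 9 striatal markers, and -5.12 over the 8 choroid plexus markers, whose sum was 14.5 CPM against 29.5 to 4567 CPM. Over the 4 pan-neuronal markers it was -0.17. Those of immature granule neurons (6 genes, -0.35), hilar mossy cells (5, -0.25), CA2 (5, -0.79), thalamus (5, -0.04), neocortex (6, 0.80), interneurons (6, 0.44), glia (6, 0.50) and mossy fibre synapses (9, -0.22) lay between. The glia markers went both ways, with Gfap and Aqp4 below all 20 other mice and Mbp, Mog, Cx3cr1 and C1qa above them. So did hilar mossy cell markers, with Calb2 and Calcrl below and Drd2, also in the striatal list, above. In the neocortex list Scnn1a was below and Lamp5 above, and of the mossy fibre synapse genes 5 were below and 3 above. Calb2, C1ql3, Pdyn and Grik4 are likewise shared between lists. The part of tissue other than hippocampus in the levels of A2 was not tested.

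Lhx9, Slc9a4, Shisa6 and Vwa3b were among the other genes with the lowest ratio of A2 to the lowest of the other mice. Lhx9, a LIM homeobox gene, had 5 counts in A2, or 0.166 CPM, against 5.68 to 17.4 CPM. Shisa6, an auxiliary protein of AMPA receptors, had 10.3 CPM against 82.2 to 245 CPM.

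**Figure D4:**
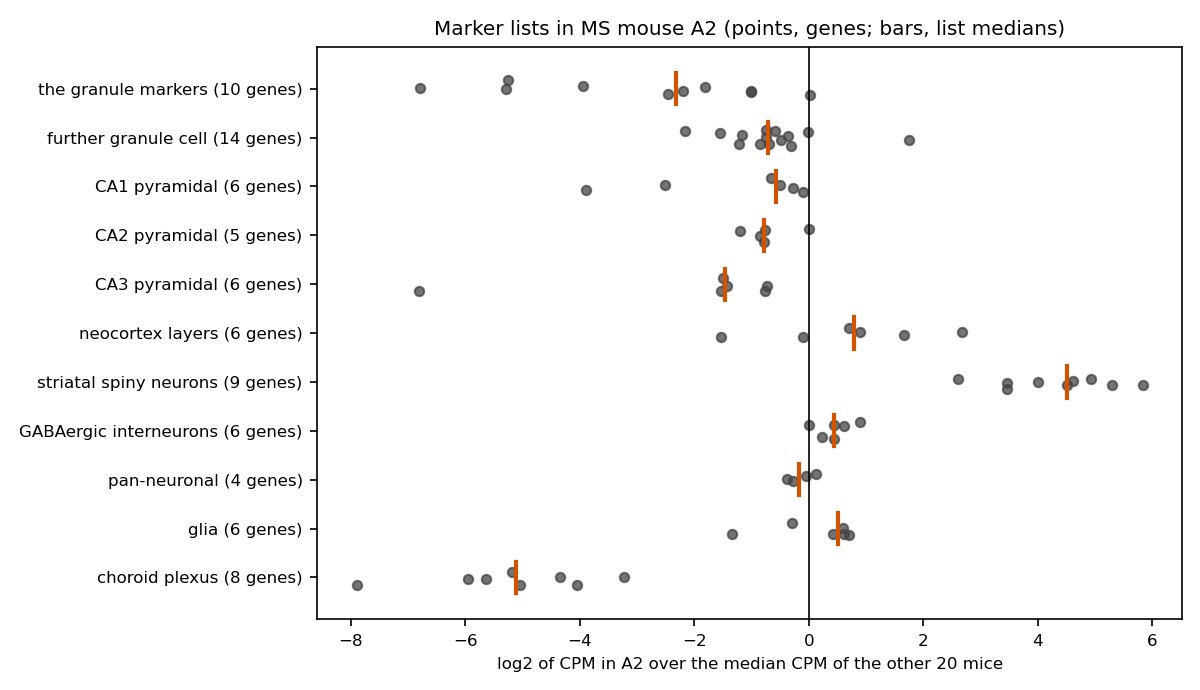
Log2 ratio of CPM in MS mouse A2 to the median CPM of the other 20 mice (horizontal axis) for the genes of each marker list (points) with the list median (orange bars). The 10 granule cell markers have a median of -2.32 and reach from -6.79 (Dsp) to 0.02 (Calb1), and the striatal markers all lie above 0, with a median of 4.50.

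Between separated and control mice, no gene of the 10 passed the test. In edgeR's quasi-likelihood test with Benjamini-Hochberg adjustment, 0 of the 10 were called at an adjusted p below 0.05, where 0.0110% of the 18146 genes tested were called. None had an unadjusted p below 0.05, against 11.5% of all genes (4.92% lower and 6.62% higher in MS), and DESeq2 also called 0 of the 10, against 0.966% of its genes. The fold change of MS against SR was below 0 for 8 genes and above 0 for Calb1 and Trpc6, and 49.7% of all genes were below 0. The 10 genes correlated with one another (median r 0.83), so a count of them is not a count of independent results. The median log2 fold change over the 10 genes was -0.08, beside 0.00084 over all genes tested.

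Prox1 had 106 ± 22.3 CPM in MS mice (SD, n = 8) and 118 ± 24.0 CPM in SR mice (SD, n = 12), a log2 fold change of -0.14 ± 0.135 (SE, edgeR adjusted p 0.731). Dsp was at 77.3 ± 17.1 CPM in MS and 84.2 ± 24.9 CPM in SR mice (log2 fold change -0.11, 95% interval -0.46 to 0.24). C1ql2 had 70.6 ± 21.3 and 72.5 ± 18.2 CPM (-0.03, -0.40 to 0.35). The MS and SR ranges overlapped for all 3, from 70.6 to 143 against 80.3 to 156 CPM for Prox1, and the intervals left room for a change of either sign.

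Lct had 54.7 ± 15.8 CPM in MS and 57.8 ± 16.4 CPM in SR mice, a log2 fold change of -0.07 (95% interval -0.45 to 0.32). Tdo2 had 5.34 ± 1.94 and 5.76 ± 1.77 CPM (-0.09, -0.52 to 0.33), and Il16 had 29.99 ± 7.85 and 32.3 ± 7.59 CPM (-0.10, -0.45 to 0.25). Glis3 had 18.6 ± 4.12 and 19.2 ± 4.11 CPM (-0.04, -0.33 to 0.26). All 4 intervals include 0, and MS and SR mice overlapped for each gene.

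Stxbp6 had the lowest p of the 10, with 85.4 ± 12.9 CPM in MS and 93.9 ± 11.7 CPM in SR mice, a log2 fold change of -0.13 ± 0.0797 (SE, 95% interval -0.29 to 0.04, edgeR adjusted p 0.562). Calb1 had 94.0 ± 10.8 and 88.6 ± 9.47 CPM (0.09, -0.04 to 0.23), the narrowest interval of the group. Trpc6 had 22.0 ± 4.57 and 21.04 ± 3.26 CPM (0.07, -0.16 to 0.30).

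The wider granule cell list gave no call either. Of its 14 genes, 0 were called by edgeR, 2 had an unadjusted p below 0.05, both lower in MS, and the median log2 fold change was -0.06. Fam163b had 167 ± 26.1 CPM in MS and 195 ± 33.2 CPM in SR mice (log2 fold change -0.22, edgeR adjusted p 0.382), and Tiam1, an activator of the GTPase Rac, had 149 ± 13.6 and 162 ± 13.4 CPM (-0.11, edgeR adjusted p 0.427). Of 9 mossy fibre synapse genes 0 were called, 7 were lower in MS, and 2 had an unadjusted p below 0.05, the neurexin gene Nrxn3 (-0.14, edgeR adjusted p 0.158) and the kainate receptor gene Grik2 (-0.09, edgeR adjusted p 0.432). Markers of immature granule neurons had 0 of 6 called with a median log2 fold change of 0.20, and hilar mossy cell markers 0 of 5 with 0.16. No list of another cell type or region had a call. All 4 pan-neuronal markers were below 0, led by the synaptotagmin gene Syt1 (-0.13, edgeR adjusted p 0.182), and Pex5l led the 6 CA1 markers (-0.12, edgeR adjusted p 0.198). All 9 striatal markers (median 0.46) and all 8 choroid plexus markers (median 0.88) had values above 0 in MS against SR, and none of them had an unadjusted p below 0.05.

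The direction changed with the sets included. Without the 3 MS mice of set C, all 10 genes had a log2 fold change below 0, with a median of -0.27, a lowest value of -0.39 (Tdo2) and a smallest adjusted p of 0.136 (Stxbp6, edgeR), where 1.83% of all genes were called. One further granule cell gene, the actin-binding Ablim3, was then called (-0.26, edgeR adjusted p 0.0412). Without set A or set B the median was 0.02, and leaving out single mice moved it from -0.16 (C2) to -0.0067 (A1).

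**Figure D5:**
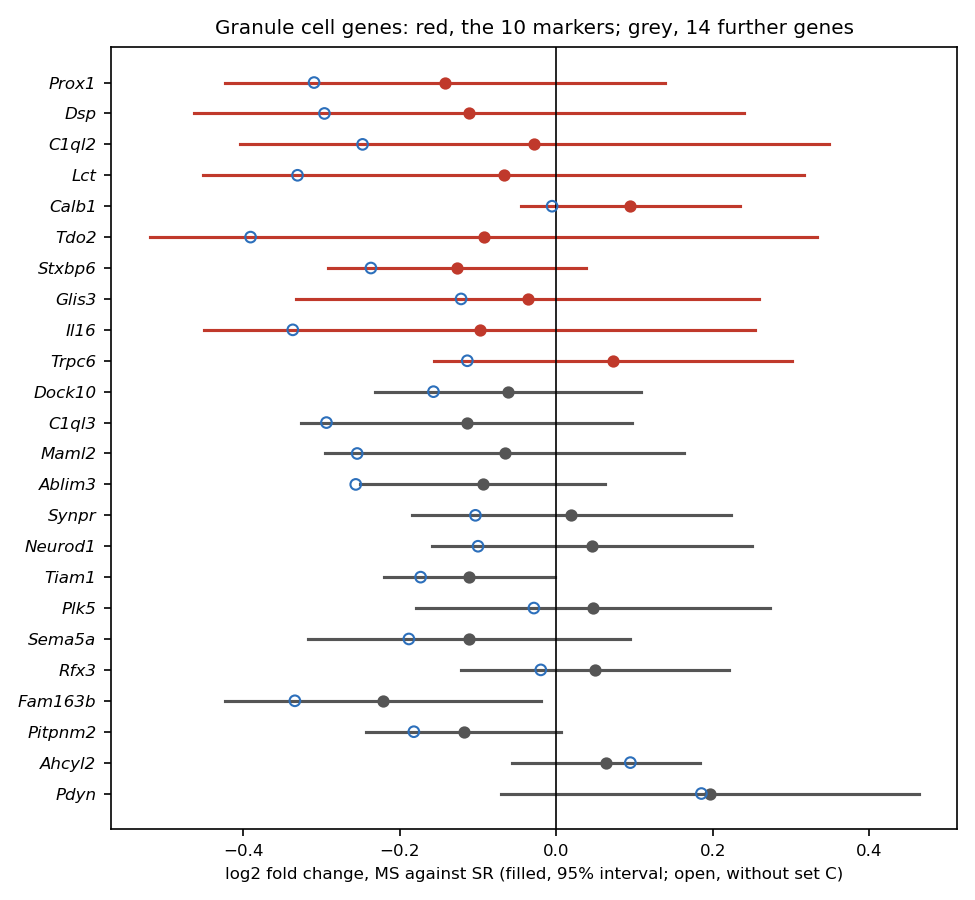
Log2 fold change of MS against SR mice (horizontal axis) for the 10 markers (red) and 14 further granule cell genes (grey), with filled points and 95% intervals for 8 MS and 12 SR mice and open points for the fit without set C. All 10 red intervals cross 0, and the open point lies to the left of the filled one for each gene shown but Ahcyl2.

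Sets of consecutive animal numbers were compared within each condition. Within SR, edgeR called 0 of the 10 genes over the 4 sets, where 0.0158% of genes were called, and 1, Glis3, had an unadjusted p below 0.05 (adjusted p 0.646), against 7.46% of all genes. DESeq2's likelihood ratio test called 0 there. Within MS, edgeR called 0 of the 10 over the 3 sets (0.0952% of genes called), and 7 had an unadjusted p below 0.05 against 8.87% of all genes. As the 10 genes correlated (median r 0.83), these 7 are not independent results. DESeq2 called Lct alone (adjusted p 0.0371, 1.38% of its genes called), and edgeR with no filter on low counts called 6 (2.39% of genes), namely Dsp, Il16, Lct, Prox1, Tdo2 and Trpc6. On the same counts of Lct, the unadjusted edgeR p was 7.63e-09 with no filter and 0.0186 with it, so these calls depend on the filter. With all 9 MS libraries edgeR called 0 of the 10, and 2 had an unadjusted p below 0.05. Mean centred levels were -0.25 in set A (2 mice), -0.18 in B and 0.24 in C.

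Mice with animal numbers above 56000, sets C (MS) and G (SR), were compared with the other 14, whose mean centred levels overlapped with theirs (0.06 to 0.42 against -0.65 to 0.48, with F3 at the top). With the condition in the fit, the log2 difference was above 0 for all 10 genes, with a median of 0.32 beside -0.0025 over all genes. In this comparison, which was added after the levels were seen, edgeR called 0 of the 10 (0.267% of genes called), and 6 had an unadjusted p below 0.05 (14.7% of all genes, 7.00% in that direction). These counts are of correlated genes and not of independent results. Trpc6 had 25.2 ± 2.43 CPM in the 6 mice and 19.8 ± 2.98 CPM in the 14 (log2 difference 0.34, edgeR adjusted p 0.110), and Lct had 68.6 ± 9.70 and 51.4 ± 15.3 CPM (0.44, edgeR adjusted p 0.256). Within the lower numbers the median log2 fold change of MS against SR over the 10 genes was -0.23, and within the higher numbers it was 0.07, with 0 called in both. The difference between these effects was tested as an interaction, and edgeR called 0 of the 10, with 0 at an unadjusted p below 0.05, where 8.52% of all genes reached it.

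The fit was also run with marker levels of other regions in it. With the striatal marker level as a term the median log2 fold change of the 10 genes was -0.03, and with the neocortex marker level it was -0.07, with 0 called in both and smallest edgeR adjusted p of 0.347 (Calb1) and 0.352 (Prox1). The unadjusted edgeR p was 0.024 for Calb1 with the striatal term. With the neocortex term it was 0.043 for Prox1 and 0.044 for Stxbp6. In the main fit none of the 10 had an unadjusted p below 0.05. Without B1 and E2, the mice with the most striatal marker RNA, the median was -0.08. With all 21 libraries it was -0.22, again with 0 called.

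Prox1 and Il16 overlap genes on the opposite strand, Prox1os (median 2.76 CPM) and Stard5 (median 15.7 CPM, against 33.6 CPM for Il16). The library kit kept the strand, but the strand setting of the counting is not given in the sources used here, so reads of such partners may not be told apart.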

How the data were processed

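The authors sequenced 21 libraries (9 MS, 12 SR) made with a directional kit, aligned reads to GRCm38 with STAR (2.7.3a) and deposited raw gene counts from featureCounts for 55487 Ensembl genes in 1 table, with no normalization. Symbols, coordinates and exon lengths came from GENCODE M21 of the same build (55227 genes matched), and start windows from RefSeq GRCm38.p6. The 10 genes, the marker lists and the tests were chosen with earlier results of these data known. The study left out 1 library it did not name, and animal 54971 was left out here. Genes passing filterByExpr (minimum count 10) were tested with edgeR's (4.0.16) robust quasi-likelihood test after TMM, with Benjamini-Hochberg adjustment over all genes tested and a threshold of 0.05, and DESeq2 (1.42.0) and limma (3.58.1) served as alternatives. CPM used TMM over the 21 libraries, log2 CPM a prior count of 2, and each SE was computed from the log2 fold change and its F statistic. Scripts were tested on simulated data. Besides the 10 genes, named genes were the defining and lowest-p genes of lists, the 5 most correlated with the 10 genes, and the 5 lowest in A2 relative to the lowest other mouse with a median of at least 10 CPM. Some genes that these rules select are not reported here.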

Additional observations from a re-analysis of the deposited data

How the results depend on the processing

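No paired analysis was possible because the labels give the mice no number shared between MS and SR. Over 39 alternatives of MS against SR, 0 of the 10 genes were called, with a smallest adjusted p of 0.136. Of 390 single values 355 kept their direction and 35 reversed. Reversed values were Trpc6 -0.016 with all 21 libraries and -0.046 within the lower animal numbers; C1ql2 0.19, Lct 0.070, Tdo2 0.085, Il16 0.070, Dsp 0.067 and Stxbp6 0.0036 within the higher numbers; and C1ql2 0.030 and Glis3 0.0085 with the striatal level as a term. These within-range and marker-level fits were added after seeing the data. The cause was not tested. Leaving out mice or sets moved the median from -0.27 to 0.021, the further granule cell genes called from 0 to 1, C1ql2 from -0.25 to 0.062, Lct from -0.33 to 0.063, Tdo2 from -0.39 to 0.024, Calb1 from -0.0053 to 0.14, Il16 from -0.34 to 0.024, Trpc6 from -0.11 to 0.16 and Glis3 from -0.15 to 0.036. Over all genes, calls were 2 in edgeR and 134 in DESeq2, 0 with counts summed within sets or with the set as a random block (correlation within sets 0.05), 340 without set C, 109 without C2 or C3, and 230 within the lower numbers. For sets within MS, the genes called went from 0 to 1 (DESeq2) and 6 (no filter on low counts), and were 0 with all 9 MS libraries. At 57 to 200 counts per library, Tdo2 has the least depth.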
